A study of Oryza sativa with 3 samples.

Results

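The JAZ genes described here are 10 rice genes of the TIFY family, TIFY3, TIFY5, TIFY6A, TIFY6B, TIFY9, TIFY10A, TIFY10B, TIFY10C, TIFY11A and TIFY11B. They were chosen by name: every gene on the array whose symbol or synonym, without an Os prefix, was one of these names. All 10 were found, among 17905 genes with a probe set of their own, and 12 of 57258 non-control probe sets belong to them. RNA came from the shoot tips of young Hitomebore seedlings, a japonica rice cultivar, and was hybridised to 3 Affymetrix arrays, one for each biological replicate. The 3 samples form a single group, labelled CK shoot, in which no treatment, mutation or second genotype is named. Seeds had germinated for 2 days at 28 °C in darkness, and the seedlings were harvested after about 48 h more under greenhouse light (16 h per day, 26 °C). The design holds no contrast between conditions, so the questions addressed are which JAZ genes gave signal above background and how far their values agreed between replicates.

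Jasmonates are lipid hormones that control wound and pathogen responses, growth and flower development. JAZ proteins are their repressors: a TIFY motif joins them to one another and to the adaptor NINJA, which recruits TOPLESS-type corepressors, while a Jas motif binds MYC transcription factors. Active jasmonate, the isoleucine conjugate, glues the Jas motif to the F-box receptor COI1, the repressor is degraded and the MYC factors are freed. JAZ genes are themselves targets of MYC factors, so many are induced by jasmonate or wounding in leaves and limit the response. JAZ numbers are ambiguous in rice: the gene table gives OsJAZ9 as a synonym of both TIFY11A and TIFY6A, and OsJAZ10 of both TIFY11B and TIFY3. TIFY names are used here for that reason.

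Values are log2 probe set signals after robust multi-array averaging (RMA). The highest of 17 Tag controls, probe sets for artificial tag sequences, served as the background ceiling and read 4.98, 4.88 and 4.97 on replicates 1, 2 and 3. A gene was called above background where its mean exceeded the ceiling in limma's moderated test, with Benjamini-Hochberg adjustment over all probe sets at 0.05. Probes differ in affinity, so levels of different genes are array signals and do not rank RNA amounts. In bulk tissue, fewer cells expressing a gene and less RNA per cell cannot be told apart. The arrays also differed outside this gene family: 4 rRNA control probe sets averaged 12.05, 11.73 and 9.59 on replicates 1, 2 and 3. All 6 grain marker genes were highest on replicate 2, with a log2 summed level of 10.31 there against 7.69 and 7.74 on replicates 1 and 3. One of them, AMY1A, lay under the ceiling on all arrays (3.60, 3.60 and 3.42), so its order has no meaning as a measure of RNA. Of 5 shoot-tip markers, OSH1, OSH71 and YAB1 were lowest on replicate 2, ROC1 on replicate 1 and YAB6 on replicate 3. YAB1, YAB6 and ROC1 exceeded background, but OSH1 and OSH71 did not pass the test (limma adjusted p = 0.58 and 0.066). The log2 summed level of the 5 was 13.02, 12.98 and 12.96. The much brighter YAB6, YAB1 and ROC1 largely set this sum, so it does not show the spread of OSH1 and OSH71. OSH1 read 3.73 on replicate 2, below the ceiling. All 4 green-leaf markers exceeded background and were highest on replicate 2. Of 4 root markers, NRAMP5 and LSI1 exceeded the ceiling and LSI2 and IRT1 lay below it on all arrays. The part of these differences in the values below was not tested.

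Signal of 8 of the 10 JAZ genes exceeded background, TIFY5 lay below the ceiling, and TIFY11A could not be told from it. Over the whole array 80.6% of genes exceeded background by the same limma test and 14.9% lay below, so 8 of 10 and 1 of 10 are close to the background shares. The same 8 genes were above the ceiling on each of the 3 arrays, as were 81.3% of all genes. The median of the 10 means was 10.46, against 8.28 for all 17905 genes. When a gene's probe sets were averaged, these medians were 9.70 and 7.84, and without _x_at and _s_at probe sets they were 8.95 over 8 members and 8.14 over 16977 genes.

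**Figure D1:**
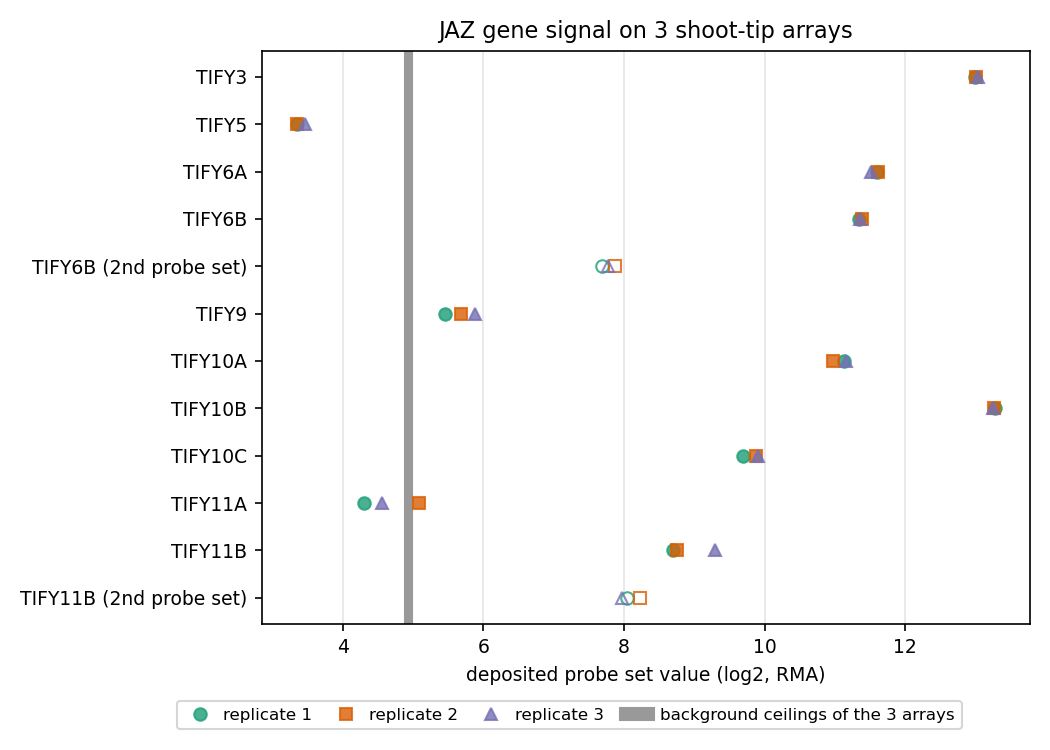
Deposited log2 RMA value of every JAZ probe set (rows) on each of the 3 shoot-tip arrays (marker shape and colour), with open markers for the second probe set of a gene and a grey band over the range of the 3 background ceilings. TIFY5 lies below the band on every array, TIFY11A lies on either side of it, and the other 8 genes lie above it on all 3.

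TIFY3 and the TIFY6 genes gave steady signal well above background. TIFY3 (LOC4337240), also named EXTRA GLUME 2 and known in rice for its role in spikelet development, read 12.99, 13.01 and 13.04 on replicates 1, 2 and 3. The 3 values span 0.05 log2, and the mean lay 8.07 above the ceiling (95% interval 7.97 to 8.17, limma adjusted p = 1.78e-24). TIFY6A (LOC4345625) read 11.60, 11.61 and 11.52, a range of 0.09. TIFY6B (LOC4347000) read 11.34, 11.38 and 11.36 in its brighter probe set, an _x_at set that may bind related transcripts. Its other probe set read 7.69, 7.87 and 7.78. The sets thus differed by 3.59 ± 0.07 (SD, n = 3) in level, but each was above the ceiling on every array and highest on replicate 2.

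The TIFY10 genes, 3 members, also exceeded background on every array. TIFY10B (LOC4343899) read 13.28, 13.26 and 13.25 on replicates 1, 2 and 3, a range of 0.03. Its SD of 0.01 was the lowest of the 10 genes, and its mean lay 8.32 above the ceiling (95% interval 8.22 to 8.41, limma adjusted p = 1.05e-24). TIFY10A (LOC4333065) read 11.13, 10.97 and 11.16 from an _s_at probe set, lowest on replicate 2 by at least 0.16. TIFY10C (LOC4347164), known in rice from resistance to bacterial blight, read 9.70, 9.88 and 9.91, with replicate 1 lowest, and its mean lay 4.88 above the ceiling.

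TIFY5 lay under the ceiling and TIFY9 just above it. TIFY5 (LOC4342421), whose namesakes in Arabidopsis carry a repression motif of their own and a degenerate degron, read 3.35, 3.35 and 3.47 on replicates 1, 2 and 3. All 3 values lay under the ceiling, with a mean difference of -1.56 (limma adjusted p = 4.65e-13), and differences among them have no order as a measure of RNA. Its only probe set is an _s_at set. TIFY9 (LOC4335698) read 5.46, 5.68 and 5.89, all above the ceiling, by a mean of 0.73 (limma adjusted p = 4.15e-05). Replicate 1 was its lowest value and replicate 3 its highest, 1.35-fold apart.

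TIFY11A and the brighter TIFY11B probe set had the highest SDs between replicates of the 10 genes, but TIFY11A lay near background and the other TIFY11B set did not share the spread. TIFY11A (LOC4331832), known in rice for stress responses to salt and low potassium, read 4.30, 5.08 and 4.55 on replicates 1, 2 and 3. It exceeded the ceiling on replicate 2 alone, by 0.20, and its mean differed from the ceiling by -0.30 (95% interval -0.61 to 0.01, limma adjusted p = 0.063). Without replicate 2 the difference was -0.55 and passed the test as below background (limma adjusted p = 0.0036). TIFY11B (LOC4331834), known in rice for an effect on growth and grain size, read 8.70, 8.76 and 9.29 in its brighter probe set, an _s_at set. Replicate 3 stood above the others there, with a range of 0.59 log2. The other TIFY11B probe set read 8.05, 8.23 and 7.97, with replicate 3 lowest. Its SD was 0.13, against 0.32 for the brighter set. The sets differed by 0.65, 0.53 and 1.32 on replicates 1, 2 and 3, so the high value on replicate 3 was read from 1 of 2 probe sets only.

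Among the members, the TIFY3, TIFY6 and TIFY10 genes had SDs of at most 0.12, and the wider spreads of TIFY11A and TIFY11B depended on the setting. The limma fit gives the SD to be expected at each signal level. The 6 genes TIFY3, TIFY6A, TIFY6B, TIFY10A, TIFY10B and TIFY10C had SDs between 0.01 and 0.12, with a median of 0.45 times the expected SD. That median was 0.93 times for all 10 members, 0.69 times for the 29 pathway list genes described below and 0.95 times for all genes. TIFY10A and TIFY10C were above the expected SD, at 1.13 and 1.06 times. TIFY3, TIFY6A, TIFY6B and TIFY10B were below it. The grouping of these 6 genes by name was made after the values were seen and was not tested. TIFY9 had an SD of 0.21, or 1.19 times the expected one. TIFY11B had an SD of 0.32, or 2.6 times the expected one, in its _s_at set, but 0.13, or 0.92 times, in its other set and 0.13 with the mean of both. TIFY11A had an SD of 0.40, or 2.6 times the expected one, as deposited, and 0.06 once values under the ceiling were raised to it. In all, 5 of 10 members exceeded the expected SD, against 46.8% of all genes, a share near the background.

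In limma's test of each variance, 0 of 10 members passed an adjusted p of 0.05 and 0 had an unadjusted p under 0.05. No probe set on the array passed (0.0%), and 1393 (2.43%) had an unadjusted p under 0.05. On simulated arrays with spreads like these, the test made no calls even for probe sets given a far wider spread. The count of 0 therefore says nothing about whether a member varied.

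**Figure D2:**
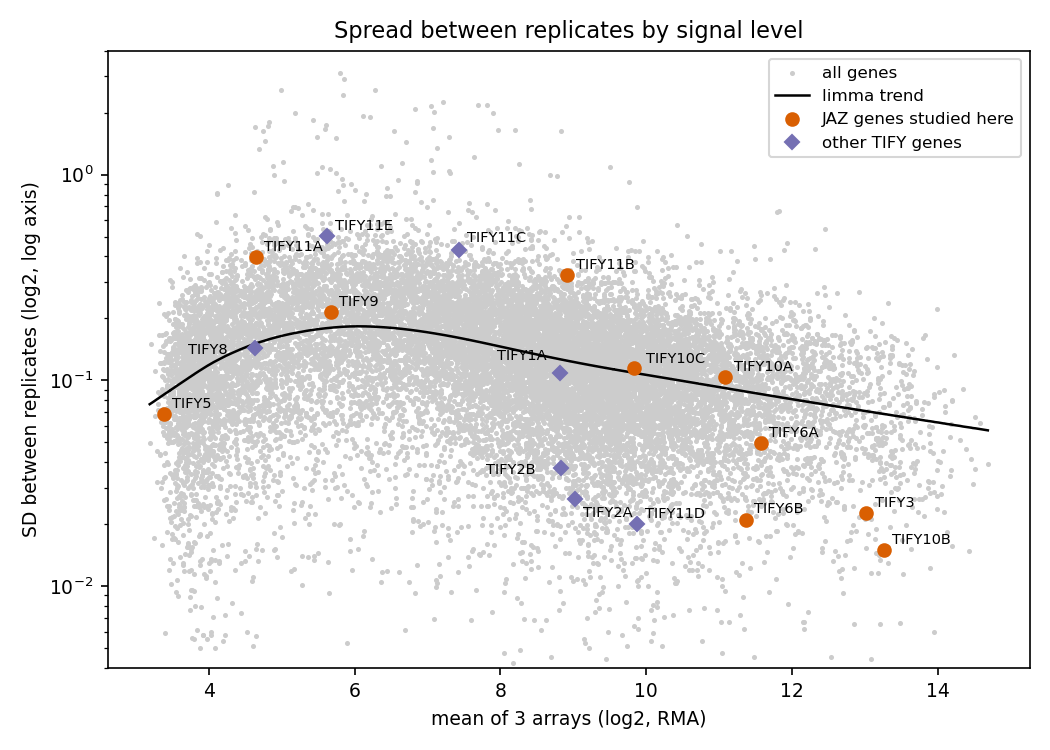
SD between the 3 replicates (log2, on a log axis) against mean signal (log2 RMA) for all genes (grey), the 10 JAZ genes (orange circles) and 7 other TIFY genes (purple diamonds), with the SD expected at each level from the limma trend as a black line. Each gene is drawn from its brightest probe set, as deposited. TIFY11A, TIFY11B, TIFY11C and TIFY11E lie above the line by over 2.6 times, though TIFY11B's other set (SD 0.13) does not, and TIFY11D, TIFY3, TIFY6B and TIFY10B lie far below it.

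The array also holds TIFY11C, TIFY11D and TIFY11E, which are not among the 10 members. TIFY11C lies between TIFY11A and TIFY11B with no other gene between them in the gene table, and TIFY11D and TIFY11E lie on 1 chromosome with 3 genes between them. TIFY11C (LOC4331833) read 6.94, 7.56 and 7.77 on replicates 1, 2 and 3, with an SD of 0.43. TIFY11E (LOC4348531) read 5.12, 5.61 and 6.12, with an SD of 0.50, the highest of these genes. It lay near background, 0.13 above the ceiling on replicate 1 and 0.67 above it on the mean. TIFY11C and TIFY11E were lowest on replicate 1 and highest on replicate 3. So were TIFY9 and the brighter TIFY11B set and, over smaller ranges, TIFY3 and TIFY10C. Of all genes, 49.9% were highest on replicate 3 and 39.1% lowest on replicate 1. The share with both was not counted, so whether this order is particular to these genes was not tested. TIFY11D (LOC4348533) read 9.86, 9.85 and 9.89 and did not share the spread of TIFY11C and TIFY11E, with an SD of 0.02. Signal of TIFY11C, TIFY11D and TIFY11E exceeded background by the limma test, as did that of 80.6% of all genes.

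**Figure D3:**
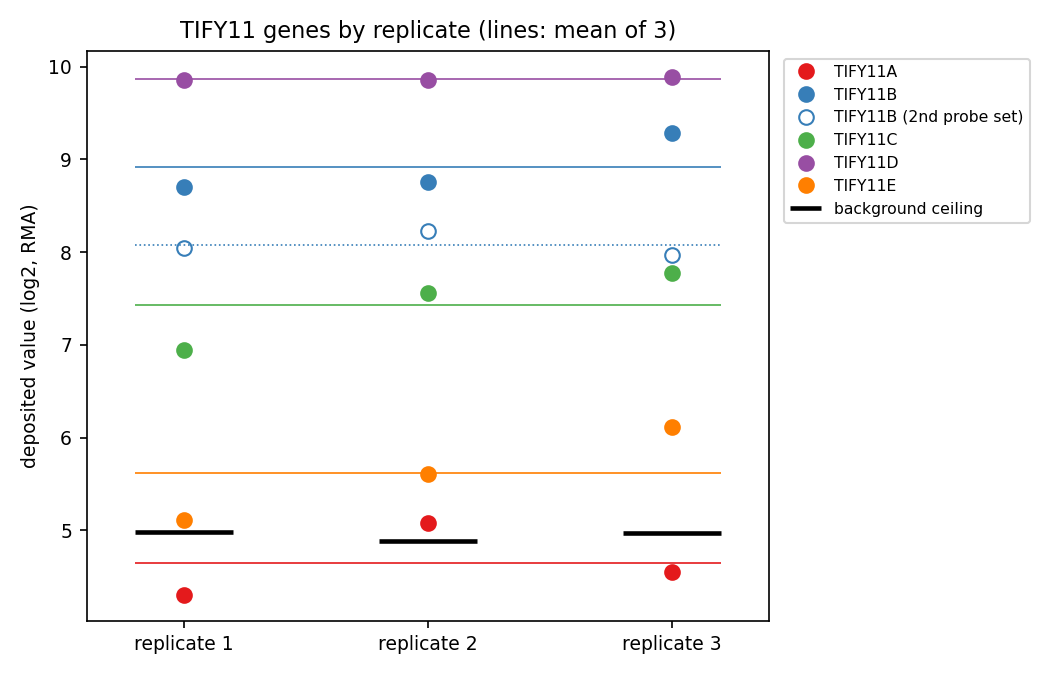
Deposited log2 RMA values of the 5 TIFY11 genes on each replicate, with the mean of 3 arrays as a thin line in the gene's colour, an open circle for the second TIFY11B probe set and a black bar for the background ceiling of each array. TIFY11C and TIFY11E are lowest on replicate 1 and highest on replicate 3, TIFY11D stays between 9.85 and 9.89, and the TIFY11B sets move in opposite directions on replicate 3.

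Shifts of the members between arrays are set beside those of all genes as a description, since no test compared them. Their median shift, that is the value on one array less the average of the remaining arrays, was -0.05, 0.00 and 0.07 on replicates 1, 2 and 3, against -0.04, -0.03 and 0.07 for all genes. Without _x_at and _s_at probe sets it was -0.09, 0.07 and -0.01 over 8 members, so the sign on replicate 3 turned. On replicate 3, 6 of 10 had their highest value, TIFY5 under the ceiling among them, as did 49.9% of all genes. With ties left out, 6 of 10 had their lowest value on replicate 1, as did 39.1% of all genes. These include TIFY11A, which lay under the ceiling on replicates 1 and 3. TIFY11B is in both counts by its _s_at set, and its other set was lowest on replicate 3.

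Among the 10 members, differences over 0.5 log2 came from TIFY11A and the _s_at set of TIFY11B only. As deposited, they were 1 of 10 between replicates 2 and 1 (TIFY11A), against 3.13% of all genes. Between replicates 3 and 1 they were 1 of 10 (TIFY11B), against 6.42%, and between replicates 3 and 2 both, 2 of 10, against 5.18%. TIFY11A lay under the ceiling on replicates 1 and 3, and once such values were raised to the ceiling the counts were 0, 1 and 1, all from TIFY11B, against 2.53%, 5.41% and 4.44% of all genes.

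Other genes were taken from a list of 62 names for jasmonate synthesis, conjugation, perception and response and for other TIFY genes. These names gave 29 genes with a probe set. Of the other names, 23 had no match, 6 matched several genes, 3 were second names of a gene already counted and 1 had no probe set. MYC2 and RERJ1 were among those without a match, and JAR1 was the only gene used for conjugation and breakdown. The 29 include 7 other TIFY genes and MYB30, a match explained below, so counts over them are not for jasmonate genes alone. Signal of 23 of the 29 exceeded background in the limma test, 5 lay below it and AOS2 could not be told from it, against 80.6% and 14.9% of all genes. Their median level was 9.02, against 8.28 for all genes.

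Of 12 synthesis genes, 8 exceeded background and 3 lay below, against 80.6% and 14.9% of all genes. AOC (LOC4333201), the allene oxide cyclase that makes the first cyclic precursor, read 12.39, 12.31 and 12.16 on replicates 1, 2 and 3. OPR10 (LOC4340486), an oxophytodienoate reductase family gene, had the highest SD of this group and read 9.83, 9.49 and 9.24, lowest on replicate 3. LOX8 (LOC4345993), a lipoxygenase gene, read 3.46, 3.46 and 3.34, under the ceiling on all arrays.

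All 3 COI receptor genes exceeded background, as did 80.6% of all genes. COI1A (LOC4324818) read 10.51, 10.63 and 10.52 on replicates 1, 2 and 3, and COI1B (LOC4338955) read 10.56, 10.36 and 10.33. COI2 (LOC4332349), the third receptor gene, read 9.93, 9.87 and 9.98. Their SDs lay between 0.05 and 0.12. JAR1 (LOC4339756), the enzyme that conjugates jasmonate to isoleucine, read 7.94, 8.03 and 7.98.

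Of 6 transcription factor and partner genes, 5 exceeded background, against 80.6% of all genes. TPR3, a TOPLESS-related corepressor gene, read 10.77, 10.72 and 10.85 on replicates 1, 2 and 3. TPR2 (LOC4327709), another TOPLESS-related gene, had the highest SD of the group by brightest probe set, 0.15. It read 9.81, 9.87 and 10.09 in that set, an _s_at set, and 8.38, 8.54 and 8.63 in its other set. JAMYB (LOC4351131), a MYB factor named for its jasmonate response in rice, read 4.05, 3.98 and 4.08, below the ceiling on all arrays. The adaptor NINJA read 10.48, 10.38 and 10.37 in its brighter probe set and 8.31, 8.43 and 8.60 in its other set. Each is an _x_at set, and the order of the replicates was reversed between them. The name MYB30 matched a gene whose synonym is MYBS3, a factor known from sugar and cold responses, so its count here says nothing of jasmonate.

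The 7 other TIFY genes with a probe set had 6 above background and TIFY8 below it, against 80.6% and 14.9% of all genes. TIFY11D was the brightest of them. TIFY8 (LOC4330630), a TIFY gene without a Jas motif in Arabidopsis, read 4.66, 4.48 and 4.76, and its mean lay below the ceiling (difference -0.31, limma adjusted p = 0.0098). Without replicate 2 the difference was -0.26 and no longer passed.

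**Figure D4:**
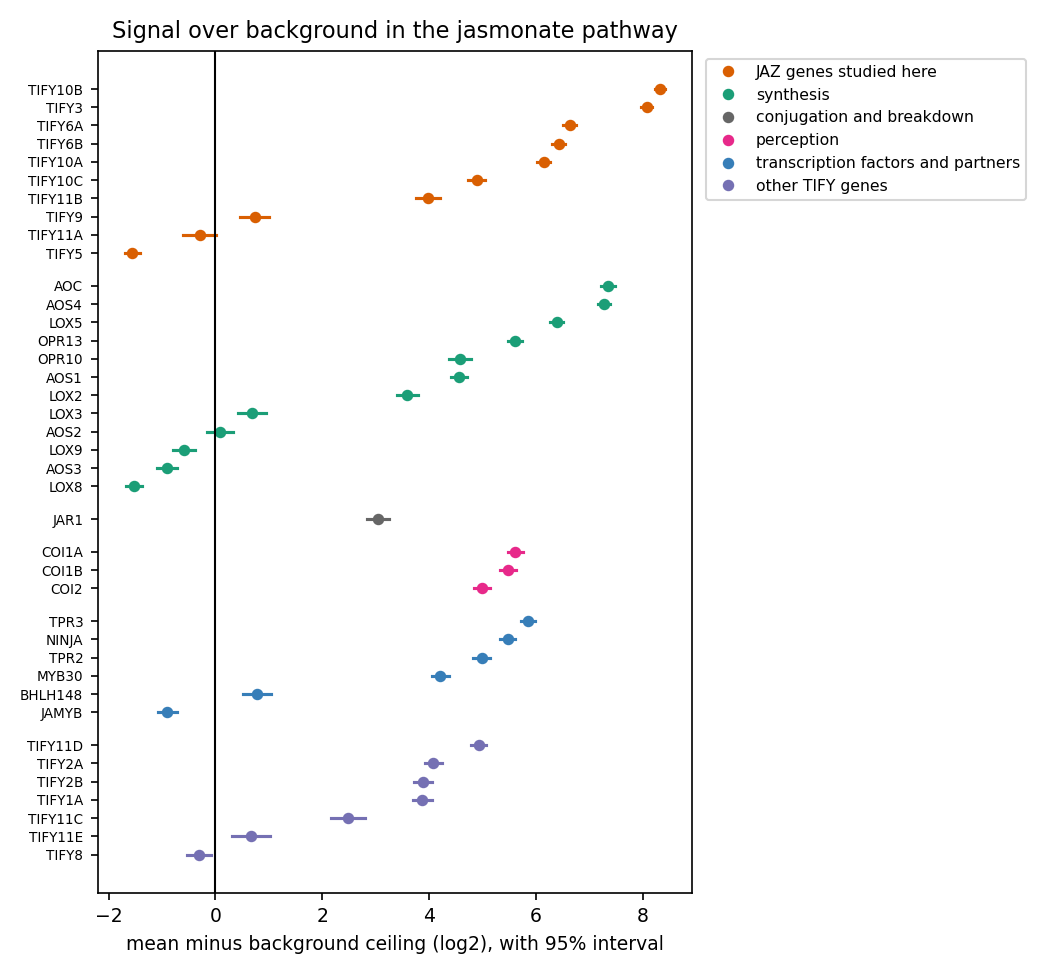
Mean of 3 arrays minus the background ceiling (log2) with its 95% interval from the limma fit, coloured by role, with a vertical line at the ceiling. The 10 JAZ genes are drawn with 29 genes of the pathway list, which include other TIFY genes and MYB30, a name that matched MYBS3. Of the JAZ genes, 8 lie right of the line, TIFY11A's interval crosses it and TIFY5 lies left of it, and all 3 COI genes lie right of it.

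In its _s_at set TIFY11B had the highest SD of the 8 genes above the ceiling on all arrays. The 3 genes nearest to that set in pattern were LOC4341475, LOC4326280 and LOC4343597, which have no further name in the gene table. Likeness was the Euclidean distance between deviations from the own mean over 3 arrays, and was 0.0024, 0.0072 and 0.0101 log2 among 14555 genes compared. Chosen for a like pattern, all 3 necessarily had their high value on replicate 3, for instance 7.80, 7.85 and 8.38 on replicates 1, 2 and 3 for LOC4341475. With 14555 genes and 3 values each, short distances are easily found. The other TIFY11B set was lowest on replicate 3, so the likeness holds for 1 of its 2 sets, and with the mean of both sets TIFY9 had the higher SD (0.21 against 0.13). These distances rest on 3 arrays and describe these samples only.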

How the data were processed

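The authors deposited log2 values. Per the submitters' processing notes these come from RMA, run in Affymetrix Expression Console (version: not given in the sources used here). This method quantile-normalizes arrays, so differences in overall brightness are removed, and it compresses values near background. RNA was 6 ug of total RNA per array, per the labels' protocols.

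Probe sets were given a gene where a platform annotation listed 1 gene (22436 probe sets), and were named from the symbols and synonyms in the RefSeq gene table of assembly ASM3414082v1. No coordinates are printed, since the build behind the array design was not stated. The 123 control probe sets were left out. A gene's brightest probe set stood for it. The members and lists were chosen with earlier results of these data known. Genes named are all members and, per role, the highest mean, lowest mean and highest SD; TIFY11C, NINJA, AOS2, MYB30 and the marker genes were named after their values were seen.

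Tests used limma 3.58.1 in R 4.3.3: an intercept-only fit of value minus ceiling, with trended and robust eBayes, and a variance test (F) of the residual variance over the trend with the common prior degrees of freedom, both adjusted over 57258 probe sets and tested on simulated data. The variance test found planted spreads there when other spreads followed the trend closely, and made no calls, at any spread planted, when they varied about it as on these arrays. With 3 arrays, their number limits the precision. The labels call the samples biological replicates; the number of plants in each is not stated.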

Additional observations from a re-analysis of the deposited data

How the results depend on the processing

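The count of JAZ genes above background in limma stayed at 8 of 10 with the mean of all probe sets, with quantile normalization repeated, with the array median as ceiling, with plain eBayes and without any 1 replicate. The array medians, 4.91, 4.92 and 4.87 on replicates 1, 2 and 3, lie close to the ceilings, so that setting checks the ceiling only weakly. The count above background was 7 of 8 without _x_at and _s_at probe sets, where TIFY5 and TIFY10A have none left. The count above the ceiling on all arrays gave the same numbers in the settings run for it (all of these but plain eBayes). The variance test, which could make no calls at this size, is no measure of stability. Of 29 genes on the pathway list, 23 stayed above background, and 20 of 26 without _x_at and _s_at sets. The median JAZ level was 9.70 with the mean of all probe sets and 8.95 without _x_at and _s_at sets. Leaving out a replicate gave a median level of 10.42 to 10.48 and a median SD of 0.0353 to 0.0735, lowest without replicate 3, against 0.0861 with all arrays. An SD from 2 arrays tends to run lower than one from 3, so the drop is not read as an effect of any replicate. Moves of the median shift were judged against the spread of a single gene's shift. That spread was wider than each median shift itself, so the comparison is no measure of stability. Without _x_at and _s_at sets the median shift was -0.01 on replicate 3, against 0.07, and 0.07 on replicate 2, against 0.00. Setting values below the ceiling to it, chosen after seeing the data for counts of differences over 0.5 log2, removed those of TIFY11A. No paired analysis was possible because there is only 1 group. Among values under or near the ceiling, RMA and the number of arrays limit what can be told apart.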
